A study of Mus musculus with 6 samples.

Results

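The genes of the NF-kappaB switch were examined in mouse T cell acute lymphoblastic leukemia (T-ALL), a cancer of immature T cells. They are the DNA-binding subunits Nfkb1, Nfkb2, Rel, Rela and Relb, the inhibitors Nfkbia, Nfkbiz and Tnfaip3, and the kinase complex genes Ikbkg and Ikbkb. Members were taken by gene symbol from the probe annotation of the array platform. Of the 10 genes, 9 had a probe, 15 probes in all, out of 19057 named genes and 45281 probes on the array. No probe carried the name Nfkb1, so Nfkb1 was not analysed here. Of the 15 probes, 10 lay above background by their mean over all arrays, and these covered 7 genes: Rela, Relb, Nfkbia, Nfkbiz, Tnfaip3, Ikbkg and Ikbkb.

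NF-kappaB proteins act as dimers that an inhibitor of the IkappaB class holds in the cytoplasm. A stimulus activates the IKK complex, which marks the inhibitor for degradation, and the freed dimer enters the nucleus and switches on its targets. Among those targets are the genes of its own inhibitors, so the response limits itself. In T cells the pathway runs downstream of the T cell receptor and of receptors of the TNF family, and active NF-kappaB is a known feature of T-ALL driven by NOTCH1.

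In the study, leukemia was induced with NOTCH1 in mice, and 3 control samples (labelled Wild Type) and 3 Klf4-deficient samples (labelled Knock Out) were compared. All are labelled as male. At 4 weeks after transplantation, bone marrow cells positive for GFP, CD4 and CD8 were sorted, and total RNA was hybridised to 1 Illumina bead array per sample. Whether each sample is a different animal is not stated in the labels, so p-values measure the spread between these samples, which may be technical. The sources used here do not give the Klf4 allele, what drives its deletion, or the NOTCH1 construct.

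The values are signals on a linear scale, some of them below 0, with a mean over all probes of 359 to 445 per array. Background was estimated from the negative values of each array, and a probe was taken as above it beyond 3 SD, a limit between 21.8 and 23.7. All 13 measured markers of the sorted cells, such as Cd4, Cd8b1 and Cd3e, were above background by their mean. Cd8a, 1 of the 13, passed the limit on only 4 of the 6 arrays. Their median log2 difference (Klf4-deficient minus control, normalized) was -0.09, with 3 markers above 0 and 10 below. The one Klf4 probe above background averaged 29.0 among the controls and 70.7 among the arrays labelled Klf4-deficient, a direction that goes against the labels. It was dim, passed the limit on 5 of the 6 arrays, and did not pass the test. Its log2 difference was 1.03 ± 0.32 (SE, adjusted p = 0.738 from limma). Whether this probe lies inside the deleted part is not known here, so it may check nothing. Klf4-deficient array 3 stood apart from the other 5 on the first principal component (46.4% of the variance). It had the highest list means for monocyte and macrophage, neutrophil and erythroid markers. Not every marker had its highest signal there, since C1qc gave 331.7 in Klf4-deficient array 2 and 291 in array 3. Such markers were bright in controls too. Hba-a1 gave 31501.2 to 36696.9 and S100a8 25775.1 to 29463.9 in controls, beside 28518.1 to 29424.4 for Cd8b1. Monocyte and macrophage markers, relative to the control mean on the log2 scale, averaged 0.28, 0.73 and 1.42 in Klf4-deficient arrays 1, 2 and 3, and -0.05 to 0.09 in controls. The summed signal of the 16 measured markers ran from 14081 to 18678 in controls and from 16083 to 33896 in Klf4-deficient arrays. Most of it came from Lyz1 and Lyz2, so it says little about the other markers. Lyz1 alone gave 10049.7 to 13342.8 in controls and 10725 to 21712.2 in Klf4-deficient arrays, and the groups of both genes overlapped. Of those 16, 4 lay under the limit by their mean, and Cd163 was under it on every array.

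The promoter windows of 3 members are shown because NF-kappaB itself is known to induce these genes. Each holds the 250 bases before an annotated start, from RefSeq on the mouse assembly GRCm38.p6, written along the gene. Capitals mark matches to the kappaB consensus, the general binding motif of NF-kappaB dimers, or to GGANTTTCC, a shorter form of it, both searched on either strand. The windows lie at chr12:55492648-55492897 (minus strand), chr10:19015411-19015660 (minus strand) and chr19:46304487-46304736 (plus strand).
Nfkbia: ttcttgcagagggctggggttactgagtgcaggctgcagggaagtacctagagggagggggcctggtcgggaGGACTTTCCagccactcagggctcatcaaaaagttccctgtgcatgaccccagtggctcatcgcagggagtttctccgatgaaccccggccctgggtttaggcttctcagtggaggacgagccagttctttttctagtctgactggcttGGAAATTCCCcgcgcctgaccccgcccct
Tnfaip3: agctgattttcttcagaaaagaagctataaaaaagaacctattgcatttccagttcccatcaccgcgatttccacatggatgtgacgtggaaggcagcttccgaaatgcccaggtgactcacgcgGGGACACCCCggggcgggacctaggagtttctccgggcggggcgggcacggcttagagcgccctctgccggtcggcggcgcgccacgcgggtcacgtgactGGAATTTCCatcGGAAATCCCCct
Nfkb2: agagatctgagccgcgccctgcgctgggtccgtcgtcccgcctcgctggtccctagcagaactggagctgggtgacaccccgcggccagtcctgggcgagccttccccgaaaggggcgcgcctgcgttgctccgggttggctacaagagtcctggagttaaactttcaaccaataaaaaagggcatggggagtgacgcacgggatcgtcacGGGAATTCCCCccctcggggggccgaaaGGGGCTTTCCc
The promoter table held 12 windows for 6 of the 10 members, and 6 of the 12 windows, from 4 members, matched the consensus. Over all 32851 windows of this length in the table, 3.9% matched the consensus and 1.07% matched GGANTTTCC. The 4 members were Nfkbia, Tnfaip3, Rel and Nfkb2, the last with a match in each of its 3 windows. The window of Rela, the 4 of Ikbkg and the other of the 2 Tnfaip3 windows, which is not shown, had no match. A palindromic stretch counts as a match on both strands, and the capitals in Nfkbia, at 29 to 20 bases before the start, serve both motifs. A match is a description of letters and was not tested for binding.

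After normalization between arrays, 0 of the 15 member probes differed between the groups at an adjusted p under 0.05 in limma, where 0.00442% of all 45281 probes (2 probes) were called. Without adjustment, 1 of the 10 member probes above background was higher and 1 was lower at p under 0.05, against 4.31% higher and 6.38% lower of the 17223 probes above background by their mean. The groups did not overlap for 1 higher and 1 lower member probe of the 10, against 6.87% and 9.59% of the same 17223. The higher one belonged to Nfkbiz and the lower one to Ikbkg, and both kept this separation under each of the 4 normalizations tried. Cyclic loess also set the groups of Rela, Tnfaip3 and a second Ikbkg probe apart, all higher, where 8.60% of probes were higher and 7.71% lower. With 1 probe for each gene, the log2 differences of the 7 genes above background ran from -0.30 to 0.38 around a median of 0.04, beside -0.01 for all 9208 such genes. That small median was -0.04 with arrays centred on their median and -0.06 with no normalization, so it has no settled direction. The median over all probes above background moved likewise, from -0.02 after quantile normalization to -0.09 and -0.11. Because RNA was taken from a population of cells, fewer cells of a type and less RNA per cell cannot be told apart.

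**Figure D1:**
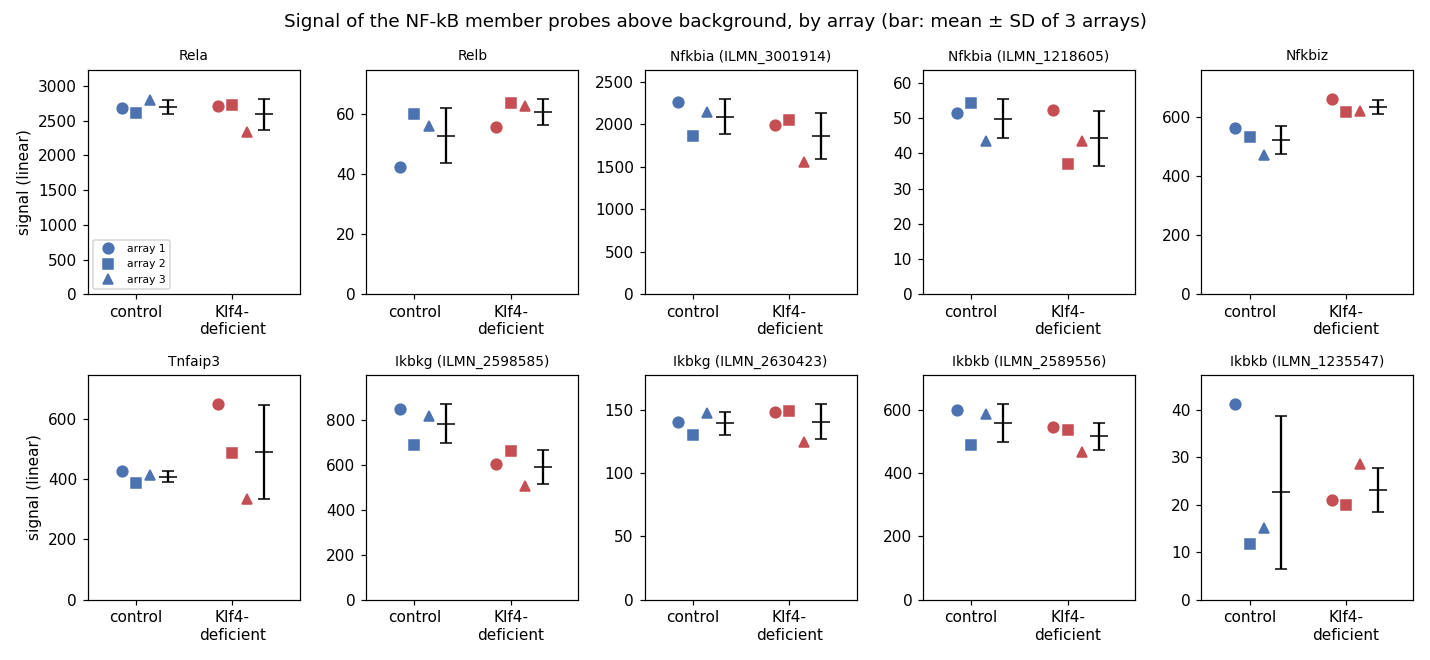
Linear signal (vertical axis, from 0) of each member probe above background in the 3 control and 3 Klf4-deficient arrays, with symbols for the array number and a bar for the mean ± SD of 3 arrays. Nfkbiz and the Ikbkg probe ILMN_2598585 are the panels in which the groups do not overlap, and Tnfaip3 spreads from 334.4 to 649.4 within the Klf4-deficient group.

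Among the subunits, Rela was the steadiest member. Rela encodes p65, the main transactivating subunit of the canonical pathway. Its signal was 2684.6, 2604.1 and 2803.6 in controls 1, 2 and 3. Klf4-deficient arrays 1, 2 and 3 gave 2707.0, 2729.5 and 2336.8 for the same probe. The groups overlapped, and the lowest value came from Klf4-deficient array 3, the array with the lowest mean signal over all probes. After normalization its log2 difference (Klf4-deficient minus control) was 0.04 ± 0.03 (SE, n = 3 per group), with a 95% interval of 0.973-fold to 1.09-fold (adjusted p = 0.824 from limma). The 6 arrays spanned 0.12 on the log2 scale for Rela. The sign of so small a difference turned to -0.04 with arrays centred on their median and to -0.06 with no normalization.

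Relb encodes a subunit of the alternative pathway, where it pairs with the p52 product of Nfkb2. Its signals were 42.4, 59.9 and 56.2 in controls and 55.7, 63.6 and 62.8 in Klf4-deficient arrays. The Klf4-deficient values fell close together, while control 1 was low and set most of the spread of its group. The mean signal was 52.8 ± 9.22 (SD, n = 3) in controls and 60.7 ± 4.35 in Klf4-deficient arrays. The log2 difference of Relb was 0.21 ± 0.15 (SE, adjusted p = 0.824 from limma), and it was 0.08 without control 1.

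Nfkb2, which encodes the p100 precursor of p52, sat at the edge of detection. It gave 21.3, 17.8 and 18.3 in controls and 24.9, 23.4 and 21.9 in Klf4-deficient arrays. No control array (0 of 3) and every Klf4-deficient array (3 of 3) passed its own background limit. That limit was 22.6 to 23.7 in controls and 21.8 to 22.1 in Klf4-deficient arrays. Klf4-deficient array 3, at 21.9, would not pass the limit of any control. The groups did not overlap, with no filter for background, for 2 higher member probes of the 15. Of all 45281 probes, 1943 were apart in this direction. The normalized log2 means were 5.10 in controls and 5.33 in Klf4-deficient arrays. The difference did not pass the test (adjusted p = 0.824 from limma, 95% interval -0.081 to 0.529 on the log2 scale). No fold is given for a probe this close to background. The difference between 21.9 and 21.3, the nearest values of the groups, is small beside the range of 17.8 to 21.3 within the controls. Rel, which encodes c-Rel, a subunit typical of lymphocytes, was not above background on any of the 6 arrays, with signals from -4.9 to 4.4. This says that the Rel probe did not detect a transcript, and the gene has no other probe here.

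Of the inhibitors, Nfkbiz was higher in every Klf4-deficient array than in any control. Nfkbiz encodes IkappaB-zeta, a nuclear member of the IkappaB class that binds NF-kappaB on DNA and shapes which targets respond. Its signal was 561.9, 533.2 and 470.8 in controls and 660.7, 616.8 and 621.3 in Klf4-deficient arrays. The mean signal as deposited was 522 ± 46.6 (SD, n = 3) in controls and 632.9 ± 24.2 in Klf4-deficient arrays. On the normalized scale the log2 difference was 0.38 ± 0.11 (SE), or 1.30-fold with a 95% interval of 1.08 to 1.58 (adjusted p = 0.684 from limma). Over 17 alternatives the adjusted p of Nfkbiz ran from 0.441 to 0.932 and its difference from 0.27 to 0.45.

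Nfkbiz lay 0.38, 0.25 and 0.52 above the control mean in Klf4-deficient arrays 1, 2 and 3. In the same arrays the monocyte and macrophage markers averaged 0.28, 0.73 and 1.42, the neutrophil markers -0.21, -0.10 and 1.34, and the erythroid markers 0.27, 0.96 and 1.68. Array 3 was thus the highest for Nfkbiz and for each of these lists, while arrays 1 and 2 were in the opposite order for Nfkbiz and the lists. Without Klf4-deficient array 3 its difference was 0.32. The part of other cells in the Nfkbiz difference was not tested.

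Nfkbia encodes IkappaBalpha, the classical inhibitor that traps dimers in the cytoplasm and is resynthesised within a short time of activation. Its brighter probe gave 2262.2, 1859.8 and 2146.7 in controls and 1987.5, 2049.8 and 1554.3 in Klf4-deficient arrays. Both groups shared the range between 1859.8 and 2049.8, with Klf4-deficient array 3 again lowest. The log2 difference of this probe was -0.07 ± 0.06 (SE), with a 95% interval of 0.86-fold to 1.06-fold (adjusted p = 0.824 from limma). The second Nfkbia probe, close to background, gave 51.6, 54.4 and 43.6 in controls and 52.4, 37.0 and 43.5 in Klf4-deficient arrays. Its difference was -0.08 ± 0.15, near that of the first probe but with a wider error. With arrays centred on their median, cyclic loess or no normalization, the difference of the brighter probe was -0.144, -0.045 and -0.169. The promoter of Nfkbia printed above holds matches to both kappaB motifs, and their relation to the transcript was not tested.

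Tnfaip3 encodes A20, an enzyme that edits ubiquitin chains and shuts off signalling to IKK, and like Nfkbia it is a feedback target. Its signals in controls were 426.1, 387.7 and 413.1, a narrow range. In Klf4-deficient arrays 1, 2 and 3 they were 649.4, 488.2 and 334.4. Arrays 1 and 2 thus lay above all controls, and array 3 lay below all of them. The SD was 19.5 in controls and 157.5 in Klf4-deficient arrays (n = 3 each). On the normalized log2 scale the arrays lay 0.69, 0.26 and -0.02 from the control mean, so array 3 sat level with the controls once arrays were normalized. The difference was 0.31 ± 0.19 (SE), with a 95% interval of 0.877-fold to 1.76-fold (adjusted p = 0.824 from limma). Leaving out Klf4-deficient array 1 gave 0.12, and leaving out array 3 gave 0.48, so the size of the Tnfaip3 difference depended on both of these arrays. The order of the Klf4-deficient arrays for Tnfaip3 was the reverse of that for the monocyte and macrophage markers, at 0.28, 0.73 and 1.42. The part of other cells in the Tnfaip3 difference was not tested.

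Tnfaip3 had the widest range, 0.71 on the log2 scale, of the member probes above background on all 6 arrays. The profiles nearest to it over the 6 arrays, by root mean square distance after centring, were those of Creb1 (0.065), Smc6 (0.084), Trpm3 (0.086), Cldn34c1 (0.095) and Il7r (0.095). The median distance over the 8354 genes compared was 0.287. Creb1 encodes the transcription factor CREB, and Il7r the receptor chain for interleukin-7, a survival signal of T cells. Creb1 stood at 0.50, 0.20 and -0.13 from its own mean in Klf4-deficient arrays 1, 2 and 3, beside 0.54, 0.11 and -0.17 for Tnfaip3. These are the closest of many profiles over few arrays, given as a description.

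Of the IKK genes, Ikbkg had probes that differed in what they showed. Ikbkg encodes NEMO, the regulatory subunit that binds ubiquitin chains and without which canonical IKK does not respond. Its brightest probe, ILMN_2598585, gave 848.3, 685.6 and 815.3 in controls and 601.1, 658.8 and 507.4 in Klf4-deficient arrays. Every Klf4-deficient array was below every control, with the closest values at 685.6 and 658.8. The log2 difference was -0.30 ± 0.06 (SE), or 0.81-fold with a 95% interval of 0.728 to 0.902 (adjusted p = 0.548 from limma). It was -0.27 to -0.36 when 1 array at a time was left out. Over 17 alternatives the adjusted p ran from 0.429 to 0.88, the highest being for the average of all Ikbkg probes.

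A second Ikbkg probe above background, ILMN_2630423, gave 140.5, 130.0 and 147.9 in controls and 148.1, 149.4 and 124.7 in Klf4-deficient arrays. The signals of these groups overlapped. The normalized log2 values overlapped narrowly, at 7.20 to 7.30 in controls and 7.28 to 7.37 in Klf4-deficient arrays, and separated with cyclic loess. The log2 difference of this probe was 0.08 ± 0.04 (SE, adjusted p = 0.824 from limma). Relative to the control mean, Klf4-deficient arrays 1, 2 and 3 lay at -0.33, -0.24 and -0.35 for the brightest probe. For the second probe these arrays lay at 0.12, 0.08 and 0.03. The lower value of Ikbkg therefore rests on 1 probe. The annotation gives the same transcript accession for both, and their positions along it are not known here. Another pair of Ikbkg probes was under the limit on every array. Averaging all probes of Ikbkg, this pair at background included, gave a difference of -0.07 (adjusted p = 0.88 from limma).

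Ikbkb encodes IKKbeta, the kinase that phosphorylates IkappaBalpha. Its brightest probe gave 599.7, 489.5 and 587.2 in controls and 548.2, 537.2 and 468.6 in Klf4-deficient arrays. The groups overlapped, and after normalization the log2 means of both were 9.11. The 95% interval of the ratio was 0.911-fold to 1.10-fold (adjusted p = 1.00 from limma). The second probe of Ikbkb reached above background on 1 of 3 arrays in each group, with signals from 11.7 to 41.2, and the other was under the limit throughout.

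**Figure D2:**
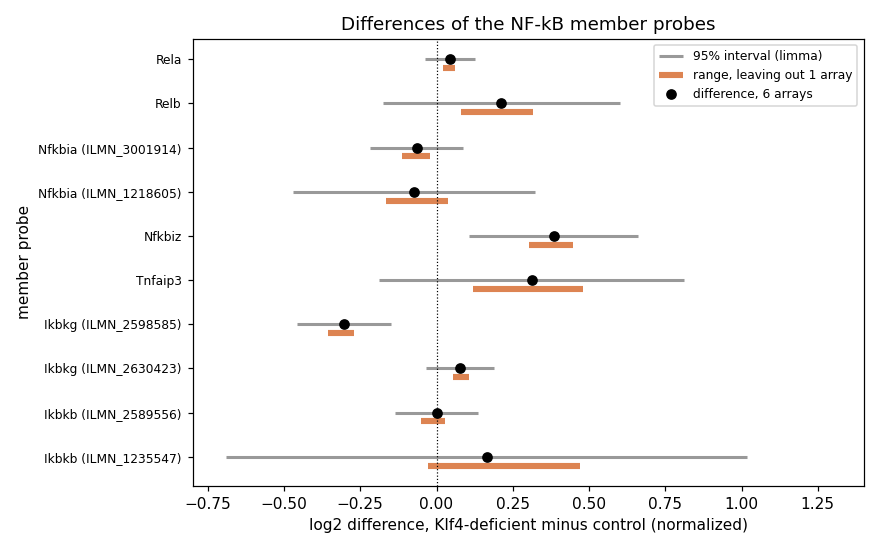
Log2 difference, Klf4-deficient minus control (horizontal axis), of the 10 member probes above background: black points are the values over 6 arrays, grey lines the 95% intervals from limma, and orange lines the range when 1 array is left out. The intervals of Nfkbiz and of Ikbkg probe ILMN_2598585 lie away from 0 on opposite sides, while Rela and Ikbkb probe ILMN_2589556 sit at 0.04 and 0.

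The rest of the pathway was taken from lists of its parts, read with 1 probe for each gene, and 0 genes of the 7 lists passed the adjusted threshold in limma. Among 7 other genes of the IkappaB class and its partners, the median log2 difference was 0.15. At an unadjusted p under 0.05, 3 were higher and 1 lower, where 5.01% of the 9208 genes above background were higher and 6.66% lower with 1 probe for each. Nfkbib, which encodes IkappaBbeta, gave 145.2, 129.8 and 144.4 in controls and 105.9, 125.9 and 79.0 in Klf4-deficient arrays, and differed by -0.34 ± 0.12 (SE, adjusted p = 0.786 from limma). Nfkbid, which encodes the nuclear protein IkappaBNS, differed by 0.15 ± 0.05 (adjusted p = 0.798). Its groups separated only after normalization, since the signals ran from 896.2 to 938.4 in controls and from 859.7 to 999.1 in Klf4-deficient arrays. Nkiras2, which encodes a small GTPase-like protein that binds IkappaB, differed by 0.15 ± 0.05 (adjusted p = 0.714), again with signals that overlapped before normalization. Its relative Nkiras1, dim and above background on 4 of the 6 arrays, is the other higher gene of the list, at 0.40 ± 0.12 (adjusted p = 0.721), and is named here after its values were seen. The other Nkiras1 probes were under the limit on every array. Nfkbil1 differed by -0.11 ± 0.12. The median of this list was 0.04 with no normalization and 0.01 with Klf4-deficient array 1 alone against the controls.

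Kinases around IKK had a median of -0.01 over 9 genes. Tab1, a partner of the TAK1 kinase that activates IKK, gave 4754.2, 4139.6 and 4634.8 in controls and 3669.8, 3882.7 and 3123.1 in Klf4-deficient arrays. All Klf4-deficient values were below all controls, and the difference was -0.24 ± 0.04 (SE, adjusted p = 0.402 from limma). Of the 9208 genes, 9.63% had groups that did not overlap with lower values in the Klf4-deficient arrays. The other Tab1 probes differed by -0.30, -0.17 and -0.19, and the groups of the last overlapped. Tab2, the related adaptor that binds ubiquitin chains, differed by -0.11 ± 0.09, Map3k14, the kinase of the alternative pathway, by 0.21 ± 0.19, and Map3k8 by 0.27 ± 0.18. Adaptors of the receptors had a median of 0.03 over 13 genes, with 1 lower at an unadjusted p under 0.05, a share close to the 6.66% over all genes. That gene was Bcl10, which links the T cell receptor to IKK, at -0.07 ± 0.02 (adjusted p = 0.686), with signals of 1477.6 to 1597.0 in controls and 1200.4 to 1482.7 in Klf4-deficient arrays that overlapped before normalization. The groups of a dimmer Bcl10 probe overlapped (-0.17 ± 0.19). Myd88, the adaptor of Toll-like receptors, differed by 0.24 ± 0.19, Traf2 by -0.26 ± 0.19 and Prkcq by 0.15 ± 0.11.

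Genes that build and cut ubiquitin chains had a median of 0.02 over 15 genes. The groups did not overlap for 1 lower and 1 higher gene of the 15, beside 9.63% and 7.71% of the 9208 genes. Otud7b, a deubiquitinase that restrains the alternative pathway, gave 625.4, 623.0 and 646.1 in controls and 531.8, 545.1 and 427.4 in Klf4-deficient arrays, with no overlap. Its difference was -0.23 ± 0.04 (SE, adjusted p = 0.548 from limma), and the groups of a second Otud7b probe above background overlapped (-0.18 ± 0.11). Tnip2, which encodes a partner of A20, was the higher gene, at 0.36 ± 0.16, with signals that overlapped before normalization. Rnf31, a subunit of the linear ubiquitin ligase, differed by 0.12 ± 0.08 and Ube2n by 0.16 ± 0.11.

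Receptors and ligands were mostly dim: 9 of 16 receptors and 5 of 10 ligands lay under the background limit by their mean. The 7 receptors above it had a median of 0.11, and none separated the groups. Cd27, a TNF family receptor of T cells, gave 15645.9 to 20124.7 over the arrays and differed by -0.08 ± 0.06 (SE). Tlr2 differed by 0.70 ± 0.48, with 278.1 in Klf4-deficient array 3 and 77.0 to 109.4 in the other 5 arrays. Tlr7 differed by 0.46 ± 0.27 and Tnfrsf1a, the main TNF receptor, by -0.04 ± 0.06. The 5 ligands above the limit had a median of 0.26. Tnf itself gave 74.5, 50.8 and 50.5 in controls and 100.4, 55.8 and 58.3 in Klf4-deficient arrays (0.27 ± 0.24). Ltb, lymphotoxin beta, differed by 0.14 ± 0.06, Tnfsf13b by 0.10 ± 0.27, and Tnfsf14, also called LIGHT, by 0.67 ± 0.30 at its brightest probe and 0.33 ± 0.28 at the next. The adjusted p was 0.824 or higher in limma for each of these receptors and ligands.

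**Figure D3:**
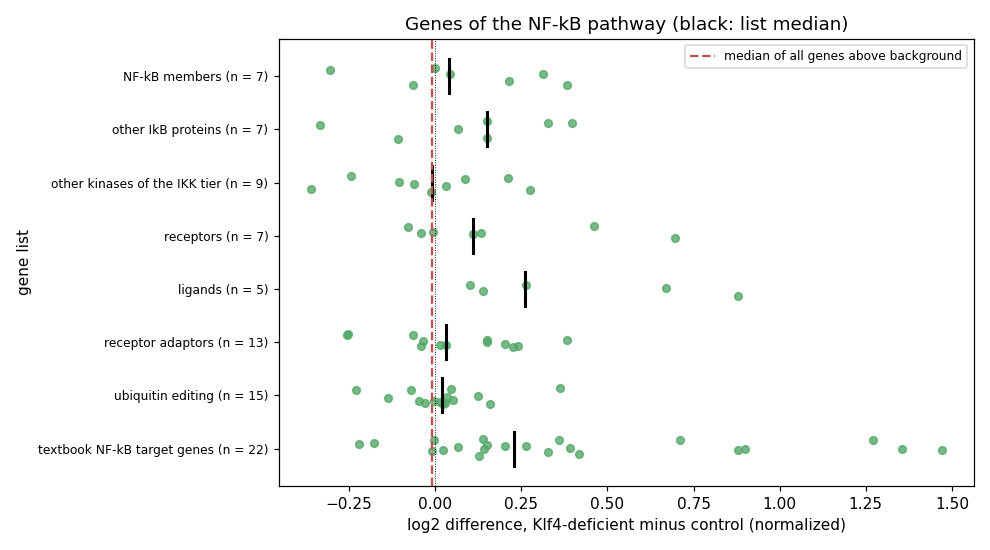
Log2 difference, Klf4-deficient minus control (horizontal axis), of each gene above background by its mean in the members and 7 lists of the pathway; black bars are list medians and the dashed line is the median of all 9208 genes above background (-0.01). Most genes lie near 0, and the target list (median 0.23) reaches 1.47 at Ccl3.

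Textbook targets of NF-kappaB, the members left out, had the widest spread of these lists. Some of them, such as Nfkbie, Bcl3, Tnf and Ltb, also belong to lists described above. Of 34 measured targets 12 were under the limit by their mean, among them Il6, Cxcl1, Cxcl2 and Ccl2. The 22 above it had a median log2 difference of 0.23, with 18 above 0 and 4 below. At an unadjusted p under 0.05, 4 were higher and 0 lower, namely the CC chemokines Ccl3, Ccl4 and Ccl5 and the early response gene Ier3. Over all 9208 genes, 5.01% were higher and 6.66% lower by this measure. These and Gadd45b, named after its values were seen (0.39 ± 0.17 SE, adjusted p = 0.824 from limma), were the 5 of 22 targets for which every Klf4-deficient array exceeded every control at the brightest probe, as for 7.71% of all 9208 genes.

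Ccl3, which attracts myeloid cells and T cells, gave 57.1, 58.1 and 29.3 in controls and 137.9, 244.7 and 99.5 in Klf4-deficient arrays (log2 difference 1.47 ± 0.36 SE, adjusted p = 0.634 from limma). Ccl4, its close relative, gave 123.2, 200 and 224.5 in controls and 365.6, 775.1 and 269.4 in Klf4-deficient arrays (1.27 ± 0.43, adjusted p = 0.765). A dimmer Ccl4 probe, with 25.5, 24.5 and 44.3 in controls and 45.8, 122.1 and 36.0 in Klf4-deficient arrays, had groups that overlapped (0.76 ± 0.41). Ccl5 gave 138.2, 253.4 and 315.7 in controls and 546.7, 805.5 and 396.6 in Klf4-deficient arrays (1.36 ± 0.38, adjusted p = 0.686). For each of the 3 chemokines Klf4-deficient array 2 was the highest and array 3 the lowest of its group. Ier3 gave 119.9, 102.4 and 73.3 in controls and 140.4, 165.1 and 262.7 in Klf4-deficient arrays (0.90 ± 0.33, adjusted p = 0.818), with array 3 the highest.

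Cells other than T-ALL cells also make these chemokines. NK and cytotoxic markers, a list that contains Ccl5, averaged 0.31, 0.80 and 1.06 above the control mean in Klf4-deficient arrays 1, 2 and 3, and -0.23 to 0.17 in controls. The summed signal of the 11 measured markers was 2135 to 3131 in controls and 2657 to 3544 in Klf4-deficient arrays. Of these 11, 5 lay under the limit by their mean, and Ncr1, Gzmb, Klrk1 and Eomes were under it on every array. The average rests on the other 6 markers, with 4 differences above 0, Ccl5 among them, and 2 below. Prf1, the brightest marker of the list, was lower (-0.18 ± 0.24 SE), with a control mean of 1891.1 against 1519.5. Klrb1c, named after its values were seen, was near 0 (-0.04 ± 0.44). The target list averaged 0.25, 0.46 and 0.49 in the same arrays, and -0.03 to 0.05 in controls. With Klf4-deficient array 1 alone against the controls, a setting chosen after seeing the data, the target median was 0.06. The mean of the target list in that array was 0.25. Vcam1 (0.71 ± 0.33 SE) counts both as a target and as a monocyte and macrophage marker, so those lists are not separate. The part of NK and myeloid cells in the target differences was not tested.

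**Figure D4:**
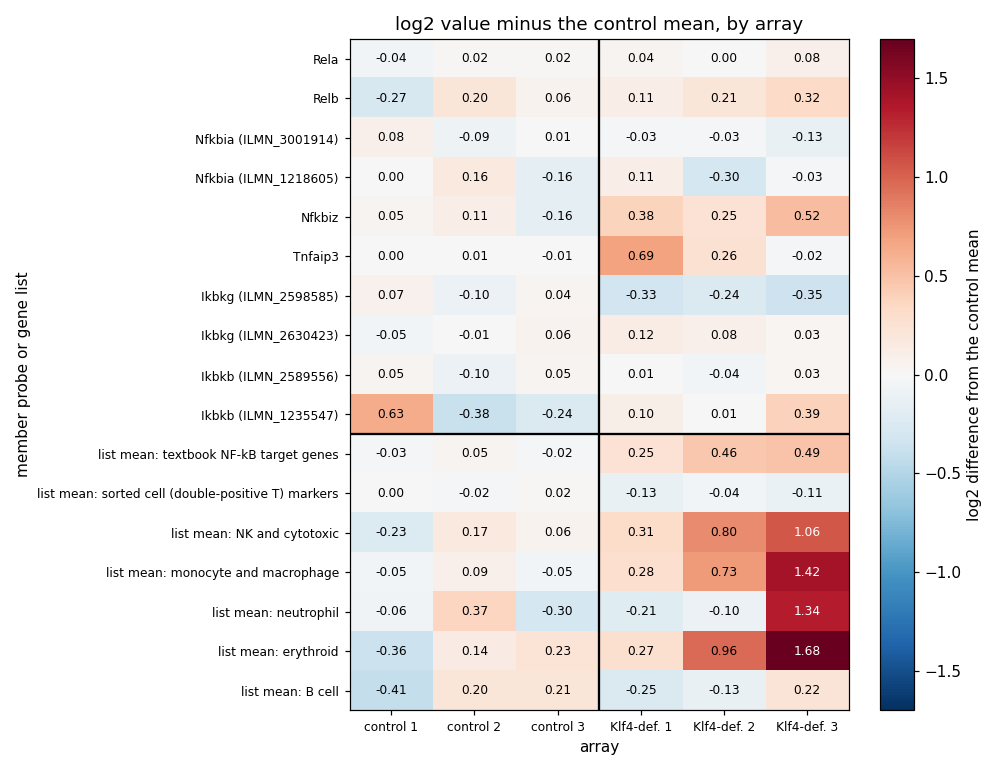
Log2 value minus the control mean (colour and printed numbers) for the 10 member probes above background and for the mean of 7 gene lists, in each of the 6 arrays. Ikbkg probe ILMN_2598585 is -0.24 to -0.35 and Nfkbiz 0.25 to 0.52 in all 3 Klf4-deficient arrays, whereas the monocyte and erythroid lists climb to 1.42 and 1.68 in array 3.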

How the data were processed

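Illumina bead arrays of 3 control and 3 Klf4-deficient samples were analysed. The authors deposited linear probe intensity values made in BeadStudio (no version given), per the submitters' processing notes. Values below 0 made up 31.3% to 34.2% of an array; the sources used here state no background method, normalization or genome build. Before log2 and quantile normalization, negative values were raised to 0 and an offset of 16 was added. All 45281 probes were fitted in limma 3.58.1 (R 4.3.3), moderated with a trend of variance on signal. P-values were adjusted by Benjamini-Hochberg over the whole table, at 0.05. For lists, a gene was read at its brightest probe.

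Members and lists were chosen with earlier results of these data known. From each list, up to 4 genes above background on all 6 arrays with the smallest p are named, besides those marked as named after their values were seen and examples at background. The 5 profiles nearest to the member with the widest range are also named. Alternatives were other normalizations, offsets, filters and variance settings, other ways to summarise probes, a replicate block and leaving out arrays. The number of arrays limits the precision.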

Additional observations from a re-analysis of the deposited data

How the results depend on the processing

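In all 17 alternatives 0 member probes were called in limma, and Nfkbiz, Relb, Tnfaip3, the brighter Nfkbia probe and both Ikbkg probes above background kept their direction wherever they were fitted. With arrays centred on the median, cyclic loess or no normalization, the median of the members was -0.035, 0.064 and -0.061. It ranged from 0.021 to 0.061 when 1 array was left out. Rela turned to -0.035 and -0.061 with centred and unnormalized arrays. The brightest Ikbkb probe was -0.079, 0.021 and -0.104 with centring, cyclic loess and no normalization, 0.055 when probes were averaged by gene, and -0.052 to 0.027 when 1 array was left out. With 1 array left out, the dim probes of Nfkbia and Ikbkb ranged from -0.166 to 0.039 and from -0.029 to 0.472. The replicate number was not taken as a pairing, since same-numbered arrays deviated with correlations of 0.18, -0.08 and -0.10. As a replicate block it called 0 probes of the whole table and gave Nfkbiz 0.384 with an adjusted p of 0.797. Against 2 probes called in the main analysis, 0 were called with centring and with probes averaged by gene, and 1 with cyclic loess and with probes above background on 3 or more arrays. Leaving out 1 array gave 22 to 49, of which 1 each time was above background. For alternatives chosen after seeing the data, the median of the other IkappaB genes was 0.043 with no normalization, and ranged from 0.008 without Klf4-deficient arrays 2 and 3 to 0.164 without single arrays. The target median ranged from 0.056 without those 2 arrays to 0.297, and was 0.156 to 0.271 under other normalizations.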
